A study of Mus musculus with 6 samples.

Results

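The 8 genes described here build caveolae, the flask-shaped pits of the endothelial plasma membrane, and the thin diaphragm that spans the neck of caveolae and the pores of fenestrated capillaries. They were chosen by name, as Cav1, Cav2, Cavin1, Cavin2, Cavin3, Plvap, Ehd2 and Pacsin2, and all 8 were found among the 22183 genes of the count table. The libraries came from endothelial cells (ECs) of the mesentery of male wild-type C57BL/6J mice, 8 to 10 weeks old per the methods. For 6 weeks, 3 mice received a daily intraperitoneal injection of peritoneal dialysis (PD) fluid, a lactate-buffered solution with 4.25% glucose, and 3 received saline. Each mouse gave 1 RNA-seq library, and neither labels nor methods name a modified allele or a kidney injury in these animals, which differed in the injected fluid. The labels describe magnetic sorting on CD31, the protein of Pecam1, whereas the methods describe flow sorting of CD31+ CD45- cells.

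Caveolin proteins insert into the inner leaflet of the membrane as a hairpin and assemble into the coat of the pit, with Cav1 required for caveolae in ECs and Cav2 incorporated beside it. The cavins are cytosolic proteins that join the caveolin scaffold from the inside, and Cavin1 is needed for the pit to form. Ehd2, an ATPase, collects at the neck and holds caveolae at the cell surface, Pacsin2 is an F-BAR protein that bends membrane, and Plvap is the glycoprotein from which the radial fibrils of the diaphragm are made. Capillary ECs are among the cells richest in caveolae, which carry albumin and other cargo across the vessel wall and flatten when the membrane is stretched.

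The total count per library was 21973426 to 26374292, and 14005 genes were abundant enough to test. All 12 general endothelial markers were detected in every library, with a summed level in CPM (counts scaled to the library total) of 1062 to 1093 after saline and of 1651 to 1709 after PD fluid, and 11 of them passed the test as higher. Pecam1 itself had a mean of 469 CPM after saline and 514 CPM in PD mice (log2 difference 0.13, edgeR adjusted p = 0.07041). Without saline mouse 2 all 12 endothelial markers passed as higher, Pecam1 with an edgeR adjusted p of 0.03. Markers of other cells moved between the groups as well, while 31.1% of all tested genes passed as higher and 27.8% as lower. The leukocyte gene Ptprc, which encodes CD45, fell from a mean of 2373 to 1473 CPM. All 5 B cell markers fell, and 2 of 5 T cell markers (Cd3d and Cd3g) fell while 0 rose. All 6 macrophage, 6 lymphatic endothelial, 8 mural, 7 fibroblast, 6 mesothelial and 7 pancreatic acinar markers rose. The 7 acinar markers rose most, from a summed 2.15 to 5.30 CPM after saline up to 6017 to 6704 CPM in PD mice. The 5 B cell markers summed to 5012 to 5303 CPM after saline and 2358 to 2390 CPM in PD mice, above the 12 endothelial markers in both groups. Since these are bulk libraries, more RNA per EC and a larger share of ECs in the sorted cells cannot be told apart. The libraries also differed in how each gene's deviation from its group mean followed GC content, with a correlation across 9379 genes of -0.47 in saline mouse 2 and 0.28 and 0.38 in the other saline mice, and of 0.37, -0.09 and -0.32 in PD mice 1, 2 and 3.

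In PD mice 7 of the 8 genes were higher and 0 lower at an adjusted p under 0.05 (edgeR quasi-likelihood test, Benjamini-Hochberg adjustment over all tested genes), and Cavin1 did not pass. Of all tested genes 31.1% were called higher and 27.8% lower. In the same 7 genes every PD mouse lay above every saline mouse, as in 34.0% of all tested genes. Called higher with a log2 difference of 0.5 or more were 6 of the 8 and 25.3% of all tested genes, and called higher with one of 1 or more were 3 of the 8 and 15.4% of all tested genes. The median log2 difference of the 8 was 0.73, beside 0.02 over all tested genes. These directions depend on the scale. When the libraries were scaled to the 12 endothelial markers, which put the median log2 difference of all genes at -0.93, 0 of the 8 were called higher and 4 lower, while 8.55% of all genes were called higher and 71.5% lower. The marker-scaled values of the 8 genes are given beside the main ones in what follows.

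**Figure D1:**
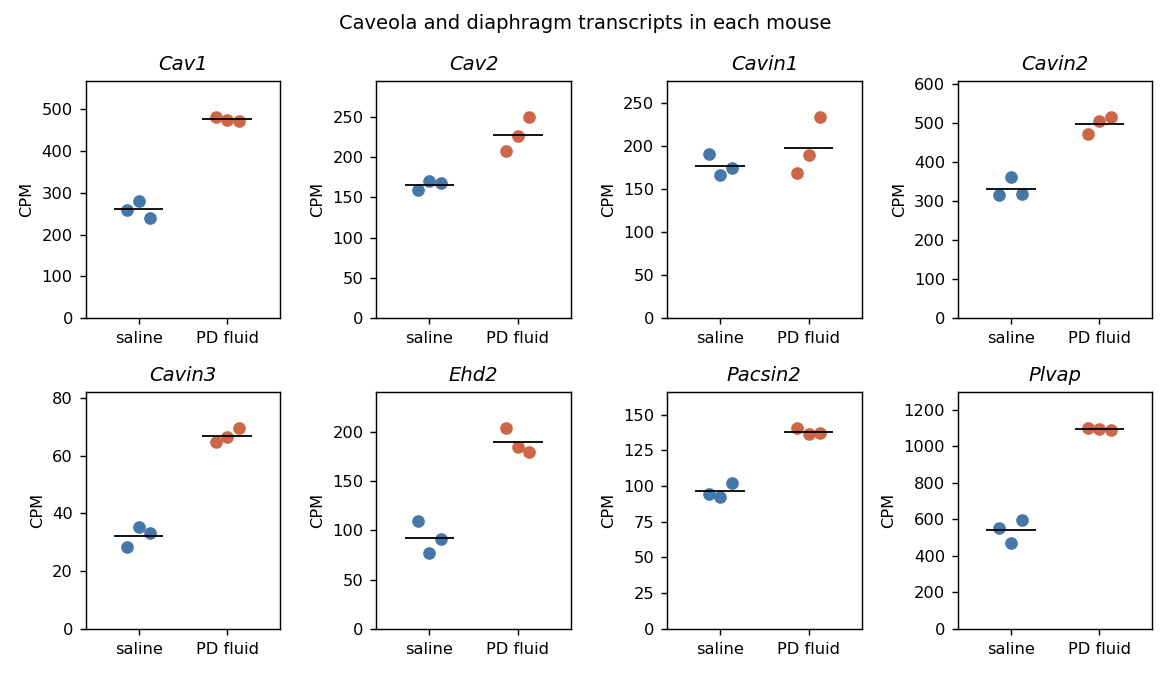
Level of each of the 8 genes in CPM (vertical axis, from 0) in the 3 saline and the 3 PD mice, with 1 point per mouse and a line at the mean of each group. The points of PD mice lie above those of saline mice in every panel except that of Cavin1, where the lowest PD mouse (168.5 CPM) lies below the highest saline mouse (190.8 CPM).

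Cav1 and Cav2 lie next to each other on the plus strand of chromosome 6, at chr6:17306335-17341452 and chr6:17281185-17289115 in GRCm38, with the start of Cav2 25150 bases before that of Cav1 and 0 tested genes between them. The sequences around their annotated starts are shown because these neighbours differed in the size of their change, and those of Ehd2 and Cavin1 because they had the largest and the smallest log2 difference among the 6 genes with a promoter in the RefSeq table (chosen after their values were seen). The windows run 5′ to 3′ on the gene's strand in GRCm38.p6, from 250 bases before the RefSeq start through its first 50 bases. In the order shown, they lie at chr6:17306085-17306384 (plus), chr6:17280935-17281234 (plus), chr7:15967486-15967785 (minus) and chr11:100970568-100970867 (minus). For Cav1 and Cav2 the RefSeq start is also the gene start in the GENCODE annotation used for positions. For Ehd2 it lies 32 bases and for Cavin1 270 bases inside the GENCODE gene. The Cavin1 window thus lies wholly within the GENCODE gene (chr11:100956733-100970887) and not upstream of it. Capitals mark matches on either strand to 5 short motifs, namely the GC box (GGGCGG), the CCAAT box (CCAAT), the TATA box (TATAAA), an ETS-type core (CGGAAG) and a KLF-type core (CCACCC).
Cav1: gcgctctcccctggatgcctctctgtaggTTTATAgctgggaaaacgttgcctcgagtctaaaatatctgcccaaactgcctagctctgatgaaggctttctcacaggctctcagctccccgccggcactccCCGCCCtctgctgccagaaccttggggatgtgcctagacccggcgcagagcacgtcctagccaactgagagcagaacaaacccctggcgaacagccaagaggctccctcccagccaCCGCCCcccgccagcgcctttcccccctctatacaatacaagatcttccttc
Cav2: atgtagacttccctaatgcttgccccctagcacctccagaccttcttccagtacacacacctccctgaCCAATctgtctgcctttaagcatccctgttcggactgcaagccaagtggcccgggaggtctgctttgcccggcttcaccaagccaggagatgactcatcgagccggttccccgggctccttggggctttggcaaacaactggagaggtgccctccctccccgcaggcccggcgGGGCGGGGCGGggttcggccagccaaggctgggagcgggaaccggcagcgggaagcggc
Ehd2: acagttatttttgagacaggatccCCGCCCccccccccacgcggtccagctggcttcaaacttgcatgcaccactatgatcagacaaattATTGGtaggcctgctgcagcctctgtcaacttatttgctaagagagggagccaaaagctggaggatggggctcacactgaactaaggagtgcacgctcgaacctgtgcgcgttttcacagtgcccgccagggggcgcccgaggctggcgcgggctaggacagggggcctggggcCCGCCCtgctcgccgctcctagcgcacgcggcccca
Cavin1: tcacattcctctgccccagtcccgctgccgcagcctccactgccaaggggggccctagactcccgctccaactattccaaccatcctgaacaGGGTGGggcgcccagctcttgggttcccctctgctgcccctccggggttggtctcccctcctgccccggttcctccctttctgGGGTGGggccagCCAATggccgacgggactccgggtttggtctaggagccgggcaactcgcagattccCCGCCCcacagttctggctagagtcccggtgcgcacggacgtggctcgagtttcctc

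Over the 32851 windows of this kind in the table, 35.7% held a GC box, 37.4% a CCAAT box, 13.6% a TATA box, 16.9% an ETS-type core and 31.5% a KLF-type core. The Cav1 window held 2 GC boxes, 118 and 2 bases before the start, and 1 TATA box match 221 bases before it, farther out than a working TATA box lies. The Cav2 window also held 2 GC boxes, which overlap by 1 base and begin 9 and 4 bases before the start, and 1 CCAAT box. The Ehd2 window held 2 GC boxes and 1 CCAAT box, and the Cavin1 window 1 GC box, 1 CCAAT box and 2 KLF-type cores. An ETS-type core was found in 0 of the 4 windows. All 4 windows held a GC box. A match describes letters and not the binding of a factor.

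Cav1 encodes the caveolin that forms the endothelial pit. Its level was 260.0, 280.9 and 240.6 CPM after saline and 480.9, 475.1 and 472.9 CPM in the PD mice. The groups did not overlap, and the PD mice lay within a few CPM of one another (SD 4.15 CPM, n = 3, beside 20.1 CPM in saline mice). The log2 difference was 0.87 (SE 0.07, adjusted p = 1.289e-06), a 1.83-fold higher level in PD mice, and leaving out any 1 mouse moved it between 0.81 and 0.93. Scaled to the endothelial markers, the log2 difference of Cav1 was -0.08 (adjusted p = 0.4245).

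Cav2 encodes the partner that needs Cav1 to reach the surface. Its level was 158.9, 170.8 and 167.7 CPM after saline and 207.2, 226.1 and 249.6 CPM in PD mice, again with no overlap. The log2 difference was 0.46 (SE 0.07, adjusted p = 0.0003929), a 1.37-fold higher level, and it turned to -0.49 (adjusted p = 0.000232) on the marker scale. Of the tested genes on either side of the pair, Tes, before Cav2, fell (log2 difference -0.28, adjusted p = 0.005241), and Met, after Cav1, rose (1.46, adjusted p = 1.27e-05). The antisense transcript Gm15581 is annotated across both caveolin genes, but it is not among the genes counted, so its own level is not known. Since the library kit is not stated to mark strand, reads from the antisense gene and from Cav1 or Cav2 cannot be told apart.

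Per length, Cav2 lay below Cav1 in every mouse. In FPKM, which divides by transcript length, Cav2 stood at 0.55, 0.54 and 0.62 of Cav1 in saline mice and at 0.38, 0.42 and 0.46 in PD mice, with no overlap between the groups. On the log2(CPM + 1) scale the ratio of Cav2 to Cav1 was 0.42 lower in PD mice (difference -0.42; two-sided exact permutation p = 0.1, adjusted p = 0.188 over 15 ratios). With 3 mice against 3 no p under 0.1 can be reached, so this test could not pass the threshold at any size of difference.

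Among the cavins, Cavin1 is the member on which the coat depends, and it was the 1 gene of the 8 that did not pass the test. Its level was 190.8, 166.4 and 173.8 CPM after saline and 168.5, 189.7 and 233.0 CPM in PD mice. PD mice 1 and 2 lay within the range of the saline mice and PD mouse 3 above all of them. The log2 difference was 0.15 (SE 0.11, 95% interval -0.08 to 0.39, adjusted p = 0.2285). The call depended on 1 library: without PD mouse 1 the difference was 0.25 and passed (adjusted p = 0.04531), and without another mouse it came as low as 0.02. Corrected for GC content the difference was -0.16 (adjusted p = 0.3019), and scaled to the endothelial markers it was -0.79 (adjusted p = 8.047e-06).

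Cavin2, which also helps shape the endothelial pit, was the most abundant cavin. Its level was 314.8, 362.4 and 319.4 CPM after saline and 471.3, 505.3 and 515.0 CPM in PD mice, without overlap. The log2 difference was 0.58 (SE 0.07, adjusted p = 4.638e-05), a 1.5-fold higher level, and -0.37 on the marker scale (adjusted p = 0.002402). Per length, the mean ratio of Cavin2 to Cavin1 was 2.16 ± 0.31 (SD, n = 3) in saline mice and 2.92 ± 0.35 (SD, n = 3) in PD mice. The antisense gene 9330175M20Rik spans Cavin2, with the same limit on strand, and is not among the genes counted.

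Cavin3 was the least abundant cavin in CPM and had the largest log2 difference of the 8 genes. It binds protein kinase C and is recruited to caveolae by Cavin1. Its level was 28.2, 35.1 and 33.3 CPM after saline and 64.6, 66.4 and 69.6 CPM in PD mice, so every PD mouse was well above the saline range. The log2 difference was 1.05 (SE 0.09, adjusted p = 4.015e-06), a 2.07-fold higher level. It was 0.77 after GC correction, and 0.10 (adjusted p = 0.408) on the marker scale, where the call was lost. Gm45667 is annotated on the opposite strand over 374 bases of Cavin3, so the limit on strand applies here too. This gene is also not among those counted.

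Plvap, the diaphragm gene, was the most abundant of the 8 in both groups. Its level was 552.5, 471.6 and 597.5 CPM after saline and 1101, 1093 and 1090 CPM in PD mice. The PD values were nearly equal (SD 5.65 CPM, n = 3) and the saline values spread about a mean of 541 CPM (SD 63.8 CPM, n = 3). The log2 difference was 1.02 (SE 0.08, adjusted p = 1.852e-06), a 2.03-fold higher level. Plvap is also the most GC-rich of the 8 (60.6% of its longest transcript), and saline mouse 2, the library with the lowest Plvap, had the strongest fall with GC content. Without saline mouse 2 the log2 difference of Plvap was 0.93 (edgeR adjusted p = 7.434e-08). With all mice and the GC correction it was 0.55 and still passed the test, and on the marker scale it was 0.07 (adjusted p = 0.4838). Its 3′ end overlaps Gtpbp3 on the opposite strand by 1819 bases, but Gtpbp3 had 1301 counts over all 6 libraries beside 118848 of Plvap.

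Ehd2 and Pacsin2 act on the shape and stability of the neck. The Ehd2 level was 109.3, 76.9 and 91.5 CPM after saline and 203.8, 184.5 and 179.3 CPM in PD mice, a non-overlapping log2 difference of 1.03 (SE 0.11, adjusted p = 1.929e-05). On the marker scale that of Ehd2 was 0.08 (adjusted p = 0.4533). Pacsin2 differed by less. Its level was 94.3, 92.2 and 102.2 CPM after saline and 140.7, 136.3 and 137.3 CPM in PD mice, with a log2 difference of 0.52 (SE 0.07, adjusted p = 5.856e-05), and of -0.43 on the marker scale (adjusted p = 0.000192). The processed pseudogene Gm5417 lies within Pacsin2 on the same strand, over 438 bases, and is not among the genes counted.

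**Figure D2:**
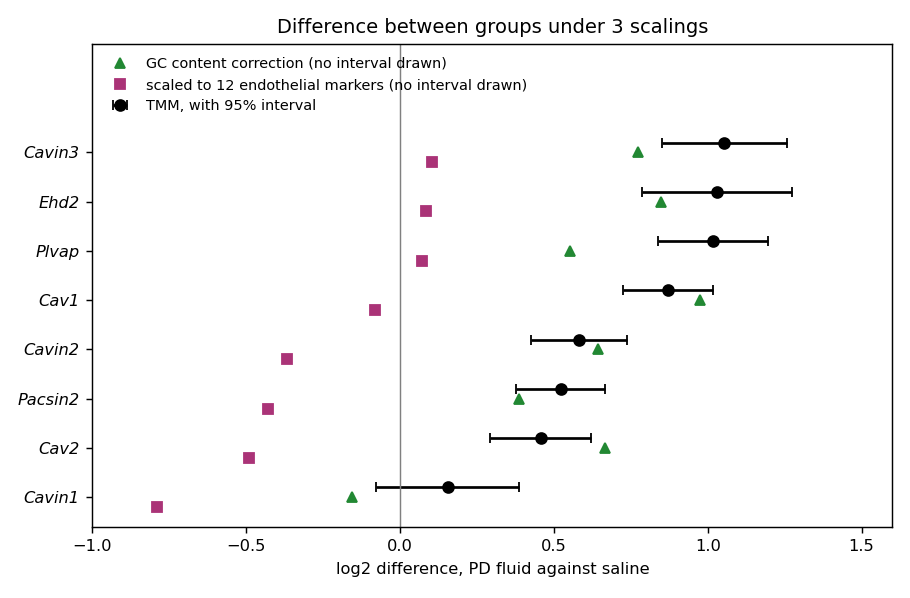
Log2 difference of each of the 8 genes, PD over saline (horizontal axis), as fitted by edgeR with its 95% interval (black), and under the marker-scaled (squares) and GC-corrected (triangles) fits, drawn with no interval. With the main scale every gene except Cavin1 has an interval above 0, whereas on the marker scale the values run from -0.79 for Cavin1 to 0.10 for Cavin3.

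Compared per length in FPKM, the order of the genes in saline mice was Plvap (mean 271 FPKM), Cavin2 (108.3), Cav1 (107.5), Cav2 (61.0), Cavin1 (50.5), Pacsin2 (33.2), Cavin3 (19.3) and Ehd2 (18.0). The mice overlapped for the neighbours Cavin2 and Cav1 and for Cavin3 and Ehd2, and were apart at every other step. In PD mice Plvap (553 FPKM) was followed by Cav1 (200.3) and Cavin2 (163.1), which no longer overlapped, and then by Cav2 (84.4), Cavin1 (56.5), Pacsin2 (47.9), Cavin3 (40.3) and Ehd2 (37.1). Here Cavin1 overlapped with Pacsin2, and Cavin3 again with Ehd2. The ratio of Cavin1 to Cav1 was 0.51, 0.41 and 0.50 in saline mice and 0.24, 0.27 and 0.33 in PD mice, without overlap. That of Plvap to Cav1 was 2.58, 2.04 and 3.01 in saline mice and 2.77, 2.78 and 2.73 in PD mice, inside the saline range.

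**Figure D3:**
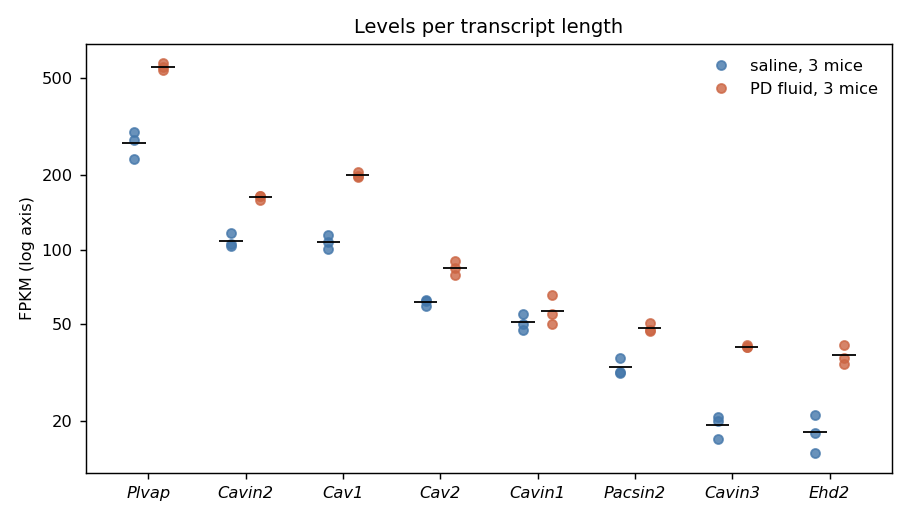
Level per transcript length in FPKM (log axis) of the 8 genes, 1 point per mouse and a line at each mean, for saline and PD mice. Plvap lies above all others in both groups, and Cav1 and Cavin2, which overlap in saline mice, are apart in PD mice.

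Set against Cav1 in the same mouse on the log2(CPM + 1) scale, the other 7 genes fell into those that kept their ratio within the spread of the mice and those that did not. The ratios of Cavin3, Plvap and Ehd2 to Cav1 differed between groups by 0.16, 0.15 and 0.16, with overlapping mice (two-sided exact permutation p = 0.3, 0.4 and 0.6). Those of Cav2, Cavin1, Cavin2 and Pacsin2 differed by -0.42, -0.73, -0.29 and -0.35, with every PD mouse below every saline mouse (exact permutation p = 0.1 for each, the smallest value possible, adjusted p = 0.188 over 15 ratios). Set against the mean of the endothelial markers, the ratio of Cav1 differed by -0.04, of Cavin3 by 0.12, of Plvap by 0.11 and of Ehd2 by 0.12, all with overlapping mice. The same 4 genes as before lay below the saline range, with differences of -0.46 for Cav2, -0.77 for Cavin1, -0.33 for Cavin2 and -0.39 for Pacsin2 (exact permutation p = 0.1, adjusted p = 0.188). In the marker-scaled fit the median of all genes was -0.93 and 71.5% were called lower, so lying below the markers is not particular to these 4. With Cav1 close to the marker mean, the ratios to the markers largely repeat those to Cav1. These ratios rest on the chosen markers, of which 1, Pecam1, differed by only 0.13 while Tie1 differed by 1.65. The grouping also changed when GC content, which runs from 37.5% of the transcript for Cav2 to 60.6% for Plvap, was corrected for. This correction also takes out any difference between the groups that follows GC content, whatever its source. In the GC-corrected fit the log2 difference was largest for Cav1 (0.98), followed by Ehd2 (0.85), Cavin3 (0.77), Cav2 (0.67), Cavin2 (0.64), Plvap (0.55), Pacsin2 (0.39) and Cavin1 (-0.16). Plvap then lay below Cav1, Cav2 and Cavin2, and Pacsin2 and Cavin1 were the lowest of the 8, where in the main fit Cav2 and Cavin1 were.

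**Figure D4:**
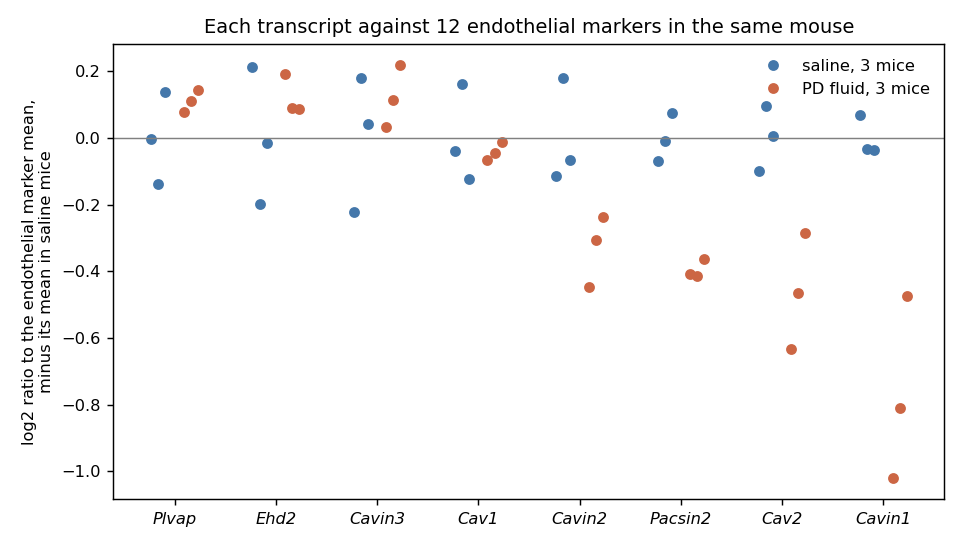
Log2 ratio of each of the 8 genes to the mean of the 12 endothelial markers in each mouse, centred on the saline mean of that gene (vertical axis, log2 units). The PD mice overlap the saline mice for Cav1, Cavin3, Plvap and Ehd2 and below all of them for Cav2, Cavin1, Cavin2 and Pacsin2.

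Other cells of the mesentery carry caveolae too, adipocytes, mural cells, fibroblasts and mesothelium among them. Of 7 tested adipocyte markers 2 (Plin4 and Lipe) rose and 0 fell, while Lep was too low to test. Their summed level was 81.7 to 96.6 CPM after saline and 112 to 130 CPM in PD mice. Most of this sum was Lipe, with a mean of 64.8 CPM after saline and 91.0 CPM in PD mice. Of those that did not pass, Adipoq (log2 difference -0.30), Cidec (-0.36) and Retn (-0.07) lay below 0, and Plin1 (0.54) and Cfd (0.09) above. The 8 mural markers summed to 280 to 299 CPM after saline and 454 to 501 CPM in PD mice. The 7 fibroblast markers went from 92.4 to 97.6 CPM up to 799 to 856 CPM, and the 6 mesothelial markers from 13.5 to 17.2 CPM up to 147 to 172 CPM. Lymphatic endothelial markers rose from 157 to 171 CPM up to 626 to 715 CPM. The summed level of the 8 caveolar and diaphragm genes was 1656 to 1726 CPM after saline and 2838 to 2947 CPM in PD mice. The part of these other cells in the differences of the 8 genes was not tested.

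Relatives of the 8 genes include the muscle members Cav3 and Cavin4. Cavin4 had 0 counts in all 6 libraries, and Cav3 was too low to test, with a mean of 0.04 CPM in saline and 0.15 CPM in PD mice. All 5 relatives that could be tested passed, 4 as higher and 1 as lower, beside 31.1% and 27.8% of all tested genes. On the marker scale 1 was higher and 3 lower, beside 8.55% and 71.5% of all genes. Ehd1, an EHD protein of the recycling endosome, rose from a mean of 48.8 to 127 CPM (log2 difference 1.38). Ehd4, also an endosomal EHD protein, rose by 0.64 and Ehd3 by 0.30 on the log2 scale, both of which turned below 0 on the marker scale (-0.31 and -0.65). Pacsin3, the muscle form, was near the lower limit, with 1.09 CPM in saline and 3.31 CPM in PD mice (1.61), and did not pass on the marker scale (0.66, adjusted p = 0.05473). Pacsin1, the neuronal form, was the exception and fell from 26.1 to 14.7 CPM (-0.83), with every PD mouse below every saline mouse, and it also fell on the marker scale (-1.77).

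A further 12 genes have products that act on caveolae or share their membrane domains. Of these 12, 8 were higher and 1 was lower, beside 31.1% and 27.8% of all tested genes, and 3 did not pass. Their median log2 difference was 0.44. On the marker scale 3 were higher and 7 lower, beside 8.55% and 71.5% of all genes. The largest differences belonged to Src, the kinase that phosphorylates Cav1, which had only 0.43 CPM in saline and 2.05 CPM in PD mice (log2 difference 2.27, adjusted p = 0.0008516), and to Ror1, a receptor that binds caveolar proteins, with 0.84 and 3.06 CPM (1.85, adjusted p = 0.0009718). Nos3, the endothelial nitric oxide synthase that Cav1 binds and restrains, was at 13.9, 8.12 and 15.5 CPM after saline and 49.1, 37.5 and 31.6 CPM in PD mice. The groups were apart, and the log2 difference of 1.65 (adjusted p = 8.82e-05) was 0.70 on the marker scale and still passed there (adjusted p = 0.002084). Prkca, a protein kinase C that Cavin2 and Cavin3 can bind, moved the other way, from 38.5 to 30.8 CPM (-0.32). Dnm2, the dynamin that cuts pits from the membrane, differed by 0.21 (adjusted p = 0.1004) and passed only without saline mouse 3 (adjusted p = 0.03216). The kinase gene Fyn was at 0.06 (adjusted p = 0.3779). Flna, whose actin-crosslinking product links caveolae to stress fibres, was at 0.41 (adjusted p = 0.05301) and passed without saline mouse 3 (adjusted p = 0.01509) or PD mouse 3 (adjusted p = 0.04042). With all mice it also passed with a replicate block (adjusted p = 0.02435), in limma-voom (adjusted p = 0.04258) and with no filter on low counts (adjusted p = 0.01736).

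Of 9 genes of endothelial transcytosis and fenestrae, 7 were higher and 0 lower, beside 31.1% and 27.8% of all tested genes. The median log2 difference of the 9 was 1.05. On the marker scale 4 were higher and 1, Mfsd2a, lower, beside 8.55% and 71.5% of all genes. Scarb1, which takes up HDL, rose from 30.2 to 83.3 CPM (log2 difference 1.47, adjusted p = 2.863e-07), Flt1, a VEGF receptor, from 47.9 to 132 CPM (1.46, adjusted p = 2.442e-08) and Acvrl1, a BMP receptor that binds LDL, from 31.4 to 71.5 CPM (1.19, adjusted p = 3.887e-06). All 3 also passed as higher on the marker scale (0.51, 0.51 and 0.23). Vegfa, the ligand that induces fenestrae, was low, at 1.56 CPM in saline and 2.47 CPM in PD mice (0.67, adjusted p = 0.05999), and passed without PD mouse 2 (adjusted p = 0.02517). Mfsd2a, a lipid transporter known to keep caveolar transcytosis low in brain ECs, was at 1.15 and 0.95 CPM (-0.27, adjusted p = 0.5402).

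The clathrin coat, the other main route of uptake, differed by less. Of its 9 genes 5 were higher and 0 lower, beside 31.1% and 27.8% of all tested genes, and 4 did not pass. The median log2 difference of the 9 was 0.17. The largest was that of Ap2a1, an adaptor subunit, at 9.22, 3.69 and 11.8 CPM after saline and 21.96, 17.2 and 12.1 CPM in PD mice (1.04, adjusted p = 0.01868). The closest mice of the 2 groups nearly met, and the call of Ap2a1 was lost without PD mouse 1 (adjusted p = 0.08473) and in DESeq2 (adjusted p = 0.07162). Ap2a2 rose by 0.66 (adjusted p = 8.37e-05) and Picalm, which sets the size of clathrin pits, by 0.41 (adjusted p = 0.005595). Cltc, the heavy chain, differed by 0.17 (adjusted p = 0.03369), and the call was lost without any 1 of saline mice 2 and 3 and PD mice 2 and 3 (adjusted p between 0.05267 and 0.09983), with a replicate block (adjusted p = 0.05584), in DESeq2 (adjusted p = 0.054) and with the length correction (adjusted p = 0.8738). Clta, Ap2m1, Ap2s1 and Ap2b1 did not pass, and Ap2b1 was the 1 gene with a value below 0 (-0.12, adjusted p = 0.159). On the marker scale 0 clathrin genes were higher and 8 lower, beside 8.55% and 71.5% of all genes.

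**Figure D5:**
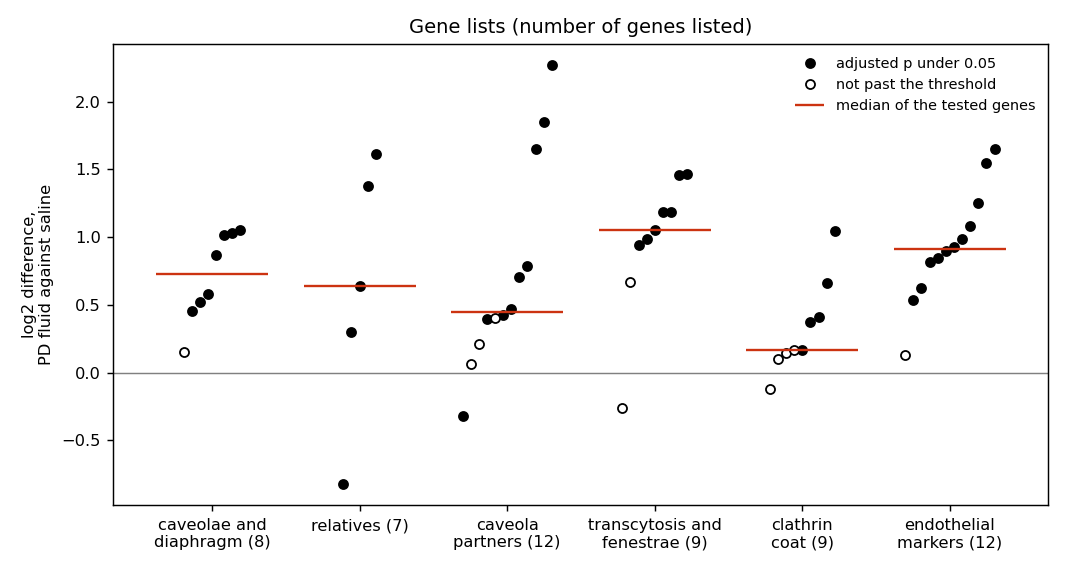
Log2 difference, PD over saline, of every tested gene of 6 gene lists (1 point per gene, filled where the adjusted p was under 0.05), with a line at the median of each list and a grey line at 0. The medians are 0.73 for the 8 genes, 0.64 for their relatives, 0.44 for partners, 1.05 for transcytosis and fenestra genes and 0.17 for the clathrin coat and 0.91 for the 12 endothelial markers, and all tested genes have a median of 0.02.

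The genes whose levels followed Cav1 most closely over the 6 mice were sought among 9377 genes with a mean of at least 10 CPM, by the root mean square difference of log2(CPM + 1) after each gene was centred on its own mean. The closest to Cav1 were Nfkbia, the inhibitor of NF-κB (0.027), the sialomucin Emcn of venous and capillary ECs (0.035), the EC surface gene Ly6c1 (0.037), the protease Prss23 (0.038) and Fmo2 (0.041). The closest to Plvap were Fzd4, a Wnt and norrin receptor of vessels (0.038), the actin-severing gene Gsn (0.039), Dnaja4 (0.040), the cortical actin gene Cttn (0.044) and Ushbp1 (0.050). Cav1 itself stood at 0.18 from Plvap, 0.13 from Cavin3, 0.23 from Cav2 and 0.40 from Cavin1 by the same measure. Emcn is also 1 of the 12 endothelial markers. All of these values mix the difference between groups with the spread within them and are given as a description.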

How the data were processed

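The deposited table held read counts per gene and FPKM (fragments scaled to transcript length and library size) of 6 libraries, which the authors made from oligo(dT)-selected RNA. The submitters' processing notes name fastp 0.18.0, Bowtie2 2.2.8, HISAT2, StringTie 1.3.1 and RSEM; their genome build and annotation are not given in the sources used here. Every column of sample values matched a sample (0 did not). Columns with the authors' own comparison were not used. The counts were fitted as deposited in edgeR 4.0.16 (R 4.3.3; TMM scaling, filterByExpr, quasi-likelihood test, Benjamini-Hochberg adjustment over all 14005 genes, threshold 0.05), a procedure first tested on simulated counts. In the simulation few genes changed, in equal numbers up and down, so it could not test the scaling. CPM used TMM-scaled library sizes. FPKM served to compare genes with each other. Per-mouse ratios were tested by two-sided exact permutation. All 8 genes and all 7 relatives were named; of the partner, transcytosis and clathrin lists, the 3 called genes of largest change and any against the majority of the list; for Cav1 and Plvap, the 5 genes of nearest pattern; the other genes of these lists that are named were added after their values were seen. The genes and lists were chosen with earlier results of these data known. Alternatives were limma 3.58.1 (voom), DESeq2 1.42.0, no filter, a replicate block, scaling to 12 endothelial markers and leaving out each mouse. GC and length corrections were added after the data were seen. They remove each library's trend in deviations from the mean over all 6 libraries. Any group difference that follows GC content or length is thus removed too. Positions are from GENCODE M21 (GRCm38), which matched 22128 of 22183 identifiers, and promoter sequences from RefSeq (GRCm38.p6), which held 6 of the 8 genes. The labels do not say whether libraries were processed together. Replicate libraries differed by more than sampling noise.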

Additional observations from a re-analysis of the deposited data

How the results depend on the processing

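Of the settings tried, scaling to the 12 endothelial markers changed most. On that scale Cav1 was at -0.080, Cav2 at -0.49, Cavin1 at -0.79, Cavin2 at -0.37 and Pacsin2 at -0.43, all turned in sign, and Cavin3 (0.10), Plvap (0.071) and Ehd2 (0.085) no longer passed. Counts of genes higher and lower became 0 and 4 for the 8 genes, 1 and 3 for relatives, 3 and 7 for partners, 4 and 1 for transcytosis, 0 and 8 for clathrin, 3 and 3 for the endothelial markers and 1198 and 10020 for all genes, beside 4359 and 3887 in the main fit. GC correction turned Cavin1 to -0.16, and with it or the length correction 1 clathrin gene was lower. DESeq2 called 3 clathrin genes higher. Leaving out 1 mouse gave 0.022 to 0.25 for Cavin1, past the threshold at 0.25, 7 to 8 of the 8 genes higher, and 3852 to 4333 genes higher and 3121 to 3685 lower in all. Same-numbered mice did not deviate together (correlations 0.09, 0.04 and -0.16 over 14005 genes), so the numbers were not taken as pairs, and not every library correlated best with its own number. With a replicate block 4242 genes were higher and 3667 lower and the 8 genes kept their calls. Of 406 values compared, the other 379 kept their call, stayed within 1.5 times for counts or, for ratios, within 1 SD. The ratios were recomputed with another prior, in FPKM and without each mouse and moved by less than their spread, but 2 with overlapping mice changed sign: Cav1 to the marker mean (-0.041) was 0.0034 in FPKM and 0.041 without saline mouse 2, and Ehd2 to Cav1 (0.16) was -0.016 without saline mouse 2. The causes were not tested. With 3 mice a group, the exact permutation test of ratios could not pass 0.05, and Src, Ror1, Pacsin3, Vegfa and Mfsd2a rest on few counts.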

Other observations

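A wider list was taken, after the data were seen, from the genes that carry the Gene Ontology term for caveola in mouse annotation. It held 84 genes beside the 8 described, of which 67 were tested, 44 were higher in PD mice, 5 were lower and 18 did not pass (edgeR adjusted p). Of all tested genes 31.1% were higher and 27.8% lower. The median log2 difference of the 67 was 0.66, beside 0.02 for all genes. These values hold on the main scale, and marker-scaled ones are not given for this list. On the marker scale all genes had a median of -0.93, with 8.55% higher and 71.5% lower. Some genes of the list are also among the partner and transcytosis genes, and many of the proteins work mainly elsewhere in the cell.

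The largest difference among those higher with at least 10 CPM in PD mice was that of Sele, the leukocyte adhesion receptor E-selectin of activated ECs, at 4.53, 4.57 and 5.01 CPM after saline and 42.5, 37.6 and 36.3 CPM in PD mice (log2 difference 3.04, adjusted p = 4.243e-09). Hmox1, heme oxygenase, had a mean of 13.99 CPM in saline and 79.5 CPM in PD mice (2.51), and Ctsb, a lysosomal protease also abundant in macrophages, 1093 and 3308 CPM (1.597). In the same libraries the macrophage markers summed to 2056 to 2179 CPM in saline and 8086 to 8717 CPM in PD mice, and their part in these differences was not tested.

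The 5 genes of the list that fell did so by small amounts. S1pr1, the endothelial and lymphocyte receptor for sphingosine 1-phosphate, fell from 1030.0 to 878 CPM (log2 difference -0.23), Slc2a1, the glucose transporter GLUT1, from 85.9 to 70.4 CPM (-0.29), Jak2 from 152 to 123 CPM (-0.30), Kif18a from 10.9 to 7.65 CPM (-0.51) and Atp1b1 from 35.6 to 29.3 CPM (-0.28). The mice of the groups were apart for each of these except Atp1b1. B cell markers, which fell from 5012 to 5303 CPM down to 2358 to 2390 CPM, moved in the same direction, and their part was not tested.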
